A study of Rattus norvegicus with 9 samples.

Results

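The comparison described here set the dorsal hippocampus of epileptic rats fed a ketogenic diet (PILO+KD) against that of control rats (CTRL), in poly-A RNA sequenced from 3 animals of each group, 1 library per animal. It covers 6 of the 9 libraries of the series. Transcripts were taken into the comparison when their read counts over these 6 libraries summed to at least 60, which kept 21036 of 31786 transcripts. All animals were male Wistar rats of 300 to 350 g that received methyl scopolamine (1 mg/kg, a peripheral muscarinic blocker) 30 min before the injection. PILO+KD animals then received pilocarpine at 340 mg/kg, with 175 mg/kg more where no status epilepticus followed, and diazepam at 8 mg/kg after 60 min of status epilepticus. They were placed on the ketogenic diet directly afterwards and observed for 84 days. CTRL animals received saline in place of pilocarpine and a standard diet. No animals on the ketogenic diet without pilocarpine were in the series, so that the effect of the diet and that of pilocarpine cannot be told apart in this comparison.

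Pilocarpine is a muscarinic agonist whose status epilepticus is followed, after a latent period, by spontaneous seizures, and the model is known for loss of hippocampal neurons and for reactive astrocytes. A ketogenic diet is high in fat and low in carbohydrate, so that the liver supplies ketone bodies to the brain as fuel, and it is used against epilepsies that resist drugs. Channels for sodium, potassium and calcium and receptors for GABA set how readily hippocampal neurons fire. In a bulk sample, a lower level of a transcript can come from fewer cells of a type or from less RNA per cell, and these cannot be told apart.

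The CTRL libraries held 20718585, 14954296 and 22143618 counts and those of PILO+KD 22330760, 20731187 and 9904067. PILO+KD replicate 3 was thus the shallowest, and it was also the only one of the 6 with FC095 in place of FC094 in its name. The rank correlation of counts (Spearman, 21036 transcripts) placed PILO+KD replicate 2 nearer to CTRL replicates 1 and 2 (0.986 and 0.988) than to the other PILO+KD libraries (0.969 and 0.975). PILO+KD replicate 3 also lay nearer to CTRL replicates 1 and 2 (0.982 and 0.981) than to PILO+KD replicates 1 and 2 (0.979 and 0.975), by less. CTRL replicates 1 and 2 were the closest pair (0.991), and CTRL replicate 2 lay closer to PILO+KD replicate 2 than to CTRL replicate 3 (0.984). The composition of the libraries split in the same way, across the groups. The top 10 transcripts held 17.2%, 16.9% and 19.3% of counts in CTRL replicates 1 and 2 and PILO+KD replicate 2. They held 12.1%, 13.4% and 13.3% in CTRL replicate 3 and PILO+KD replicates 1 and 3. Whether composition accounts for these correlations was not tested. Since leaving out PILO+KD replicate 2 changed the number of calls most, results are given with all libraries and without it. Its label places it in PILO+KD, and whether the library matches its label was not tested. By the study's account, all rats of both pilocarpine groups had convulsive seizures shortly before termination, with no record tied to a single library. This library was singled out after its values were seen, for its effect on the calls and its rank correlation with CTRL. Leaving it out can therefore widen differences between the groups by construction, and p-values without it are conditional on that choice. Not every difference widened: the log2 fold change of Kcna2 went from -0.81 to -0.80 and that of Eif2c1 from -0.19 to -0.094. The deposited table names transcripts by Ensembl identifier. Symbols are given for 24 transcripts that the study pairs with a gene, 14 related to epilepsy and 10 epigenetic. The study chose these genes in animals given pilocarpine on a standard diet against the same CTRL libraries, so their direction here is not independent evidence. The levels below are CPM (counts scaled to the library total) adjusted for composition by the trimmed mean of M-values (TMM), they are not per transcript length, and fold changes are log2 of PILO+KD over CTRL with their standard error (SE).

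With all 6 libraries no transcript passed an adjusted p of 0.05 in the quasi-likelihood test of edgeR with Benjamini-Hochberg adjustment (0 of 21036, smallest adjusted p = 0.103). Unadjusted, 1035 transcripts (4.92% of those tested) had p under 0.05, of which 597 were higher (2.84%) and 438 lower (2.08%) in PILO+KD. The cutoff the study used, an unadjusted p of 0.01, was passed by 265 (1.26%), where a uniform distribution of p would give 210. Of these, 173 were higher (0.822%) and 92 lower (0.437%), and 84 of the higher and 29 of the lower differed by more than 2-fold. In limma-voom the count at an adjusted p under 0.05 was also 0, whereas the exact test of edgeR called 81 or 0.385% (68 or 0.323% higher, 13 or 0.0618% lower). DESeq2 called 59 or 0.28% (46 or 0.219% higher, 13 or 0.0618% lower), and limma-voom with library quality weights called 40 or 0.19% (31 or 0.147% higher, 9 or 0.0428% lower). A set of 30 transcripts was called by each of these 3 tests, and 24 of the 30 were higher in PILO+KD.

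Transcripts with an unadjusted p under 0.01 made up 1.68% of the 8025 transcripts with a mean of 1 to 10 CPM, 1.04% of the 9794 at 10 to 100 CPM and 0.745% of the 1744 above 100 CPM. Among the 1473 transcripts under 1 CPM there were 15 (1.02%), so the share did not fall steadily with level. From 1 to 10 CPM 93 of 135 were higher in PILO+KD, and from 10 to 100 CPM 60 of 102. The typical difference was small: the median size of the log2 fold change over all transcripts tested was 0.16, and their median was 0.02.

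**Figure D1:**
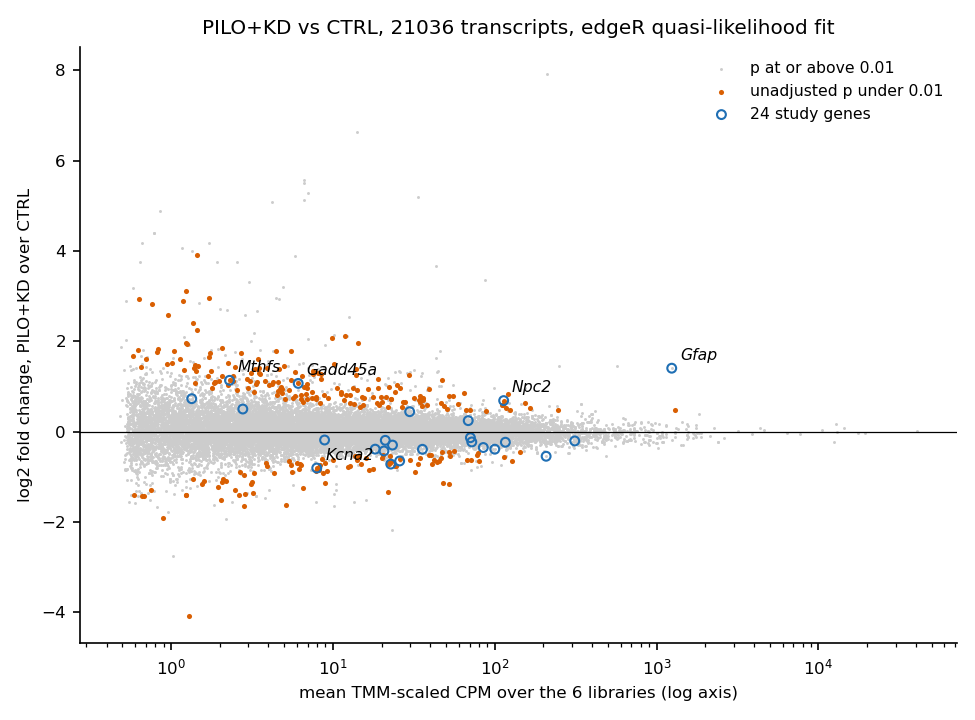
Log2 fold change of PILO+KD over CTRL (vertical axis) against the mean TMM-scaled CPM of the 6 libraries (horizontal, log axis) for 21036 transcripts. Orange points mark the 265 transcripts with an unadjusted p under 0.01 and blue circles the 24 study genes, of which Gfap had the largest log2 fold change (1.40).

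Groups were without overlap, meaning that all 3 libraries of one group lay beyond all 3 of the other, in 2068 transcripts (9.83% of those tested). Of these, 1018 were higher (4.84%) and 1050 lower (4.99%) in PILO+KD. Groups of 3 libraries also separate at some rate without any difference, so the share is not by itself a sign of change. The directions by level were not tested. Above 10 CPM the lower ones outnumbered the higher: 508 against 376 at 10 to 100 CPM and 111 against 57 above 100 CPM. From 1 to 10 CPM the order was the other way round, with 491 higher and 375 lower.

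Among these 24 study genes, all of which were tested, 8 were higher and 16 lower in PILO+KD, and none passed an adjusted p of 0.05 with all libraries (adjusted p from 0.306 to 0.989, edgeR quasi-likelihood). An unadjusted p under 0.05 was reached by 12 of the 24, beside 4.92% of all transcripts tested, with 5 higher and 7 lower. By list, these were 7 of the 14 epilepsy genes and 5 of the 10 epigenetic genes. The groups were without overlap for 9 of the 24, beside 9.83% of all tested, with 4 higher and 5 lower. The median size of the log2 fold change was 0.41 for the 24 genes and 0.16 for all transcripts. Fitting all 9 libraries at once left 6 of the 24 with an unadjusted p under 0.05, beside 3.53% of all tested. The count was 7 without CTRL replicate 2 (beside 3.56%), 6 without CTRL replicate 3 (beside 3.34%) and 6 without PILO+KD replicate 3 (beside 4.51%). It was 15 without PILO+KD replicate 2, where the share of all transcripts was also higher, at 11.3%.

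Gfap encodes the intermediate filament of astrocytes, whose level goes up when astrocytes become reactive. Its level was 723, 540 and 780 CPM in CTRL and 2702, 854 and 1846 CPM in PILO+KD. All PILO+KD libraries lay above all CTRL libraries, but replicate 2 only just, at 125% of the CTRL mean. The group means were 681 ± 125 and 1801 ± 925 CPM (SD, n = 3), which gave 1.40 as the log2 fold change (SE 0.40, adjusted p = 0.816, edgeR quasi-likelihood). Without PILO+KD replicate 2 the log2 fold change was 1.73 with an adjusted p of 0.00187, and without replicate 1 it was 0.99 (adjusted p = 0.979). The exact test and the quality-weighted test passed with all libraries (adjusted p = 0.0126 and 0.0238). DESeq2 and limma-voom without weights did not (adjusted p = 0.264 and 0.641). Over the alternatives run, the adjusted p of Gfap ranged from 0.00187 to 1.

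Npc2, which exports cholesterol from lysosomes together with Npc1, was the study gene with the smallest p. Its level was 94.3, 79.0 and 87.8 CPM in CTRL and 142, 122 and 157 CPM in PILO+KD, so that every PILO+KD library was higher than every CTRL library, replicate 2 included. The log2 fold change was 0.69 (SE 0.15, unadjusted p = 0.000488, adjusted p = 0.306, edgeR quasi-likelihood). It passed in the exact test (adjusted p = 0.0232), in DESeq2 (0.0212), with quality weights (0.0398) and without PILO+KD replicate 2 (log2 fold change 0.77, adjusted p = 0.0264), and over all alternatives its adjusted p ranged from 0.0212 to 1.00. Ndufa2, a subunit of respiratory complex I, was at 77.1, 65.8 and 45.6 CPM in CTRL and 67.4, 73.3 and 82.4 CPM in PILO+KD. These ranges overlapped (log2 fold change 0.24, SE 0.19, unadjusted p = 0.215 in the same fit), and leaving out CTRL replicate 3 or CTRL replicate 1 gave 0.055 or 0.40 (unadjusted p = 0.735 and 0.0646).

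Gadd45a, a stress-induced protein linked to DNA repair and active demethylation, was at 3.87, 2.95 and 4.82 CPM in CTRL and 7.84, 4.54 and 12.6 CPM in PILO+KD. PILO+KD replicate 2 lay within the CTRL range and the other PILO+KD libraries above it. The log2 fold change was 1.07 (SE 0.34, adjusted p = 0.736, edgeR quasi-likelihood), and without replicate 2 it was 1.35 with an adjusted p of 0.0458. Without replicate 3, the highest library, it was 0.67 (adjusted p = 0.998). Apobec1, the cytidine deaminase that edits apolipoprotein B mRNA, had levels of 1.98, 2.75 and 2.20 CPM in CTRL and 3.48, 2.96 and 3.30 CPM in PILO+KD. The groups were without overlap, with a log2 fold change of 0.50 (SE 0.27) and an unadjusted p of 0.0904 in the edgeR fit.

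Mthfs, an enzyme of folate metabolism, rested on few reads, with 31, 26 and 24 counts in CTRL and 95, 42 and 32 counts in PILO+KD. Scaled to depth these were 1.54, 1.79 and 1.03 CPM against 4.18, 2.14 and 3.11 CPM, without overlap and with replicate 2 lowest in its group. The log2 fold change was 1.13 (SE 0.35, adjusted p = 0.684 in the edgeR quasi-likelihood fit) and 1.35 without replicate 2 (adjusted p = 0.0998). Tgif1, a homeobox repressor of TGF-beta signalling, was lower still, at 0.793, 1.30 and 0.904 CPM in CTRL and 1.76, 0.868 and 2.43 CPM in PILO+KD. PILO+KD replicate 2 lay inside the CTRL range and the other PILO+KD libraries above it (log2 fold change 0.73, SE 0.43, unadjusted p = 0.111, edgeR). It was 1.04 without replicate 2 (unadjusted p = 0.0196) and 0.42 without replicate 3.

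To show the sequence in front of the 3 study genes that were higher and passed an adjusted p of 0.05 without PILO+KD replicate 2, the 250 bases before the RefSeq gene start are printed, from rat build GRCr8 (not the build the reads were aligned to), 5′ to 3′ on the strand of the gene. They lie at chr10:88361662-88361911 for Gfap, chr6:110149246-110149495 for Npc2 and chr4:97486800-97487049 for Gadd45a, all on the minus strand, and end directly before the annotated start, which need not be the start of the transcript that was counted. Capitals mark matches to the CCAAT box on either strand (CCAAT, or ATTGG where the match is on the other strand).
Gfap: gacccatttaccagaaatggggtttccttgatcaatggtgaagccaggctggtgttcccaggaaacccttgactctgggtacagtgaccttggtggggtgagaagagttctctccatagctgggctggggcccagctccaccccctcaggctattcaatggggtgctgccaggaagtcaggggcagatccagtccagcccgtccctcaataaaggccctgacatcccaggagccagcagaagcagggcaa
Npc2: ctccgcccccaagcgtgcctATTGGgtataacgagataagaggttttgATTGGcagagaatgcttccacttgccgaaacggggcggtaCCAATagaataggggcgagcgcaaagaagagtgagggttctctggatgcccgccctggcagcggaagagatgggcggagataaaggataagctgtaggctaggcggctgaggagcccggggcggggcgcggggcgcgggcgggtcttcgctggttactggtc
Gadd45a: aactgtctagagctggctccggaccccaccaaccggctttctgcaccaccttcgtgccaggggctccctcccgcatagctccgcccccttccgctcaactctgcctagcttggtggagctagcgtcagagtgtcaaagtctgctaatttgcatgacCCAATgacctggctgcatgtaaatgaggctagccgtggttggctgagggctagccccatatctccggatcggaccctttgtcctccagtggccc
Besides CCAAT, 5 motifs were searched on both strands: the AP-1 site (TGANTCA), the cyclic AMP response element (TGACGTCA), the STAT site (TTCCNGGAA), the E-box (CACGTG) and the TATA box (TATAAA). None of these 5 strings occurs in the 3 windows, and they occur in 6.34%, 1.59%, 1.07%, 5.59% and 12.9% of 33469 rat promoter windows of this length. CCAAT occurs in 34.0% of them, 3 times in the Npc2 window (from positions -230, -202 and -162 relative to the start), once in the Gadd45a window (from -94), and not in the Gfap window. A missing match says only that these letters are not in the window.

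The 5 subunits of voltage-gated channels described here were all lower in PILO+KD, with log2 fold changes from -0.81 to -0.23, and 3 of the 5 had an unadjusted p under 0.05, beside 4.92% of all transcripts tested (2.08% lower). Kcna2, an axonal potassium channel subunit, was at 8.87, 12.5 and 9.12 CPM in CTRL and 6.65, 5.72 and 4.86 CPM in PILO+KD. All PILO+KD libraries lay below all CTRL libraries, and replicate 2 was at 56.3% of the CTRL mean. The log2 fold change was -0.81 (SE 0.22, unadjusted p = 0.00285, adjusted p = 0.568, edgeR quasi-likelihood). It was -0.80 without replicate 2 (adjusted p = 0.185), and no alternative brought the adjusted p of Kcna2 under 0.154.

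Cacng2 (stargazin), an auxiliary subunit that brings AMPA receptors to the synapse, was at 21.8, 23.7 and 25.9 CPM in CTRL and 19.9, 18.2 and 14.7 CPM in PILO+KD. The groups were without overlap (log2 fold change -0.43, SE 0.17, unadjusted p = 0.0270, edgeR).

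Scn4b, an auxiliary beta subunit of sodium channels, was the channel gene in which PILO+KD replicate 2 stood furthest from the rest of its group. Its level was 26.4, 33.9 and 34.7 CPM in CTRL and 16.9, 29.8 and 13.4 CPM in PILO+KD. Replicate 2 lay inside the CTRL range, at 94.1% of the CTRL mean, and the other PILO+KD libraries lay below it. The log2 fold change was -0.65 with all libraries (SE 0.26, adjusted p = 0.974, edgeR quasi-likelihood) and -1.06 without replicate 2 (adjusted p = 0.0213). Without replicate 3, the lowest library, it was -0.44 (adjusted p = 0.998). For the remaining channel genes the test gave an unadjusted p of 0.110 for Kcna1 (log2 fold change -0.30) and 0.164 for Scn8a (-0.23), and their ranges overlapped with CTRL. Without PILO+KD replicate 2 Kcna1 was at -0.43 (unadjusted p = 0.0303), and Scn8a was at -0.36 without CTRL replicate 1 and -0.10 without CTRL replicate 3.

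Itpr1, the IP3 receptor that releases calcium from the endoplasmic reticulum, was at 225, 239 and 276 CPM in CTRL and 149, 231 and 126 CPM in PILO+KD. As with Scn4b, replicate 2 lay inside the CTRL range and the other PILO+KD libraries below it. The log2 fold change was -0.55 (SE 0.20, adjusted p = 0.925, edgeR quasi-likelihood) and -0.85 without replicate 2 (adjusted p = 0.0252), whereas without replicate 3 it was -0.38 (adjusted p = 0.998). Atp2a2, the pump that refills this calcium store, overlapped between groups (log2 fold change -0.21, SE 0.16, unadjusted p = 0.216, edgeR), with -0.35 without PILO+KD replicate 1 and -0.090 without replicate 3.

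Gabrd, the delta subunit of extrasynaptic GABA-A receptors, was singled out after its values were seen because its PILO+KD libraries lay furthest apart. It was at 26.1, 29.0 and 29.7 CPM in CTRL and 5.90, 26.1 and 19.8 CPM in PILO+KD, so that PILO+KD replicate 1 was far below and replicate 2 level with the lowest CTRL library. Its log2 fold change was -0.72 (SE 0.50, unadjusted p = 0.198, edgeR), and -1.21 without replicate 2 (unadjusted p = 0.0528). Without replicate 1, which carried most of the difference, it was -0.29 (unadjusted p = 0.145). With all libraries, limma-voom gave -1.02 (unadjusted p = 0.0298, adjusted p = 0.977). Limma-voom with quality weights gave -1.13 (unadjusted p = 0.00516, adjusted p = 0.254).

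Pcdh19, a protocadherin of neuronal contacts, was at 18.3, 24.3 and 19.6 CPM in CTRL and 15.5, 17.0 and 14.9 CPM in PILO+KD, without overlap (log2 fold change -0.39, SE 0.17, unadjusted p = 0.0425, edgeR). The log2 fold change of Pcdh19 was -0.28 without CTRL replicate 2 and -0.25 after thinning (unadjusted p = 0.207 and 0.213). Without PILO+KD replicate 2 it was -0.46 (unadjusted p = 0.0266). Gpr56, an adhesion G-protein-coupled receptor, overlapped between the groups (log2 fold change -0.24, SE 0.18, unadjusted p = 0.220). It was -0.42 without PILO+KD replicate 1 (unadjusted p = 0.0358) and -0.081 without replicate 3.

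Of the 6 chromatin genes, 5 were lower and 1 higher in PILO+KD. Ncoa1, a nuclear receptor coactivator, was at 90.1, 96.5 and 99.5 CPM in CTRL and 69.9, 86.1 and 68.0 CPM in PILO+KD (log2 fold change -0.35, SE 0.15, unadjusted p = 0.0319, edgeR). Ezh1, a histone H3 methyltransferase of Polycomb repressive complexes, was at 109, 109 and 123 CPM in CTRL and 65.8, 97.9 and 96.4 CPM in PILO+KD (log2 fold change -0.39, SE 0.17, unadjusted p = 0.0378). In both genes the groups were without overlap. In Ncoa1 replicate 2 was the PILO+KD library nearest to CTRL, and in Ezh1 replicate 1 stood apart as the lowest, without which the log2 fold change of Ezh1 was -0.22 (unadjusted p = 0.184).

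Cbx5 (HP1 alpha), a protein of heterochromatin, was the chromatin gene that was higher, at 24.5, 29.0 and 22.6 CPM in CTRL and 41.5, 32.4 and 28.9 CPM in PILO+KD. PILO+KD replicate 3 fell just inside the CTRL range (log2 fold change 0.44, SE 0.18, unadjusted p = 0.0274, edgeR), and without replicate 1 the log2 fold change was 0.28 (unadjusted p = 0.151). For Mll1, Zmynd8 and Nrip1 the log2 fold changes were -0.39, -0.14 and -0.19 with unadjusted p of 0.0722, 0.353 and 0.547, and that of Nrip1 was 0.060 without PILO+KD replicate 3 and -0.58 without replicate 2. Mll1 was at -0.57 without PILO+KD replicate 2 (unadjusted p = 0.0156) and -0.19 without CTRL replicate 3, and Zmynd8 at -0.078 without CTRL replicate 3. Eif2c1, an Argonaute protein of small RNA silencing, had a log2 fold change of -0.19 (SE 0.20, unadjusted p = 0.350), which was -0.43 without PILO+KD replicate 1 (unadjusted p = 0.0424) and -0.079 without CTRL replicate 3.

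**Figure D2:**
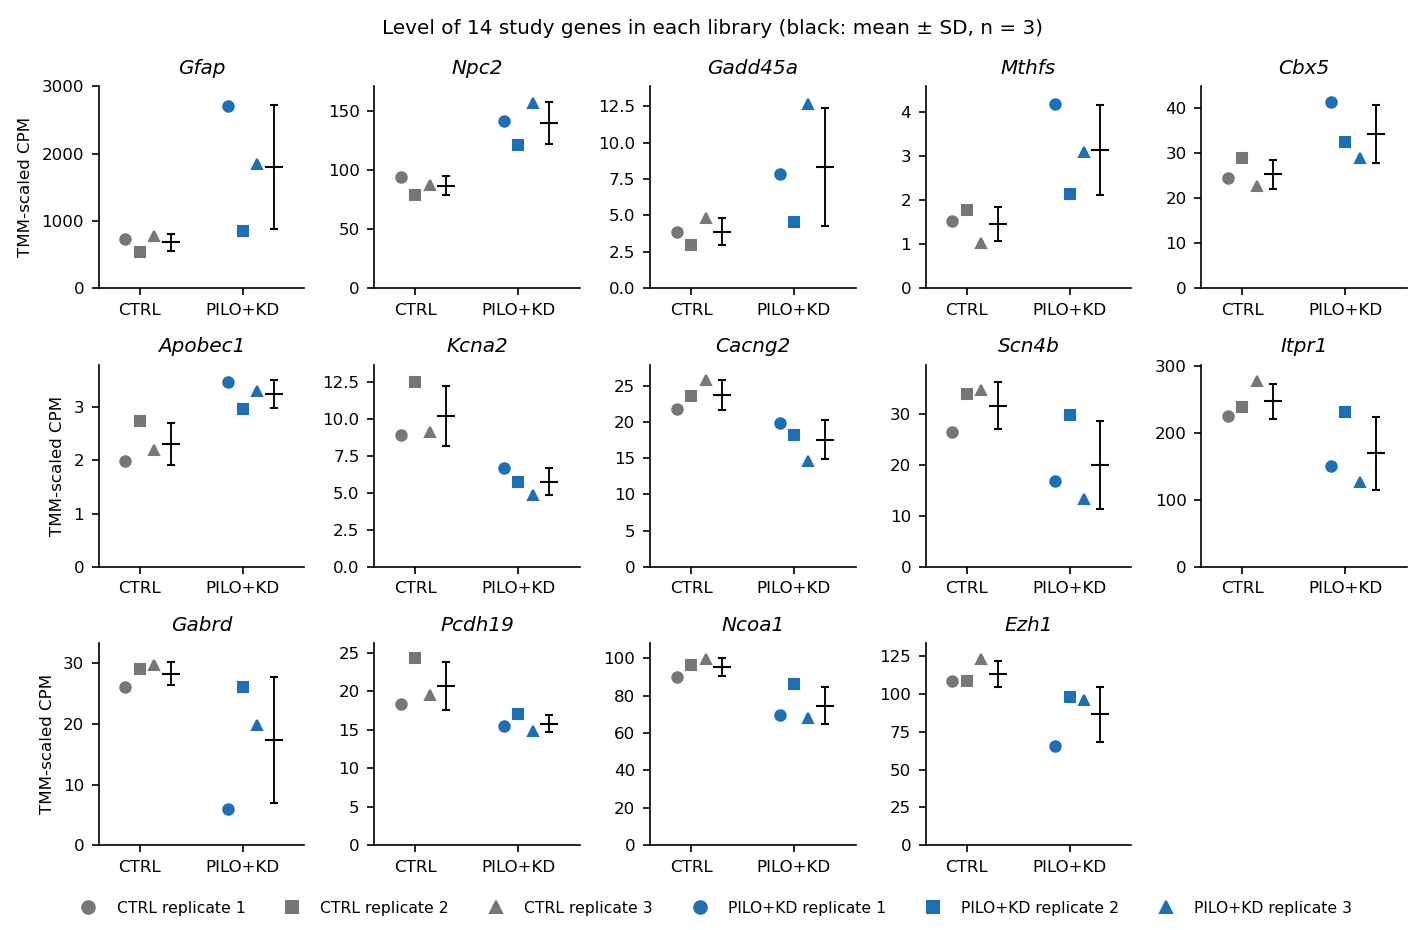
TMM-scaled CPM (vertical axis, from 0) of 14 study genes in each CTRL library (grey) and PILO+KD library (blue), with marker shape for the replicate and black bars for mean ± SD (n = 3). In Gadd45a, Scn4b and Itpr1 the blue square of PILO+KD replicate 2 lies inside the CTRL range. In Gfap, Npc2 and Kcna2 all 3 PILO+KD libraries lie on one side of it, in Gfap with the square only just above.

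Set against the CTRL range gene by gene, PILO+KD replicate 1 lay outside it for 18 of the 24 study genes, replicate 2 for 15 and replicate 3 for 21. Of all transcripts tested, replicate 1 lay above the CTRL range in 29% and below it in 26.1%, replicate 2 in 30.1% and 30.5%, and replicate 3 in 29.9% and 26.9%, so that over all transcripts replicate 2 was the library most often outside this range. Over the 24 study genes, the median size of the log2 ratio to the CTRL mean was 0.60, 0.23 and 0.52 in replicates 1, 2 and 3. PILO+KD replicate 2 had the smallest log2 ratio of the 3 libraries in 15 genes and the largest in 1, whereas replicate 3 had the smallest in 2 and the largest in 15.

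**Figure D3:**
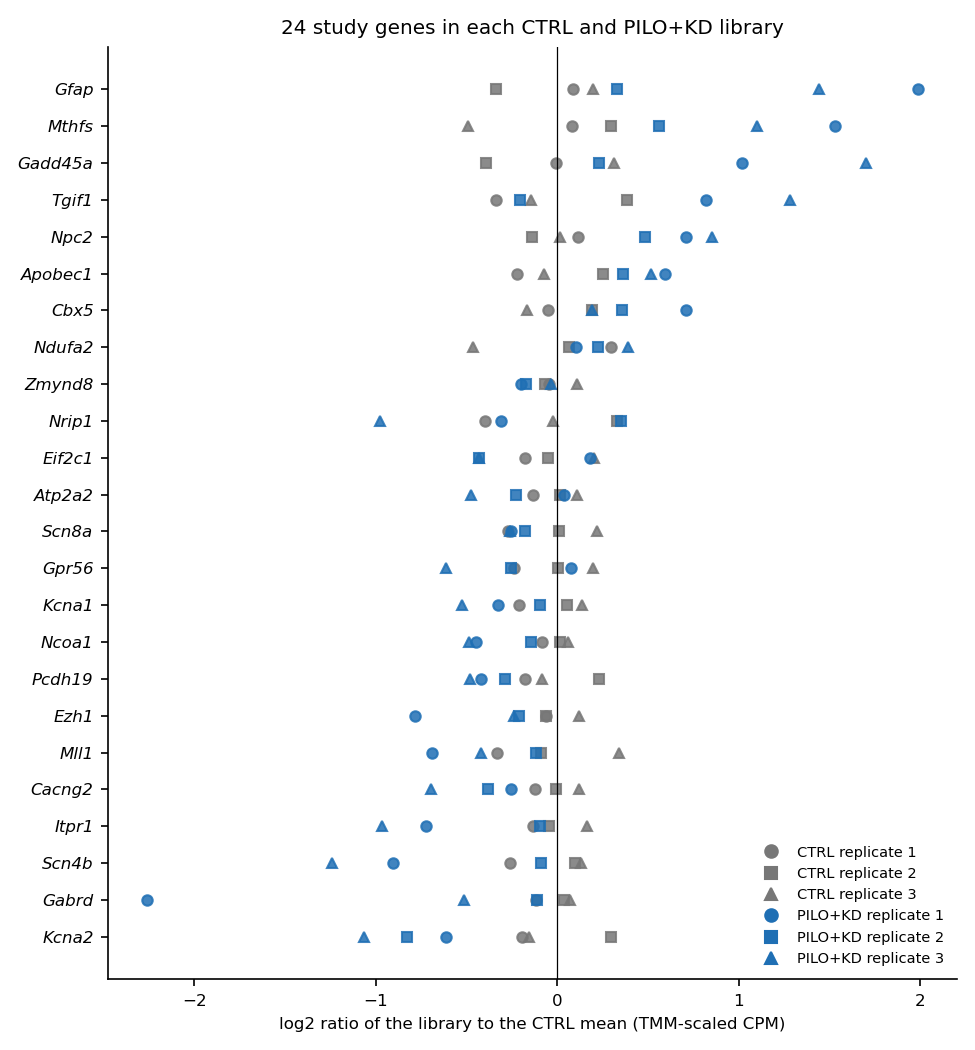
Log2 ratio of each library to the CTRL mean (horizontal axis) for the 24 study genes, ordered by fold change, with CTRL libraries in grey and PILO+KD libraries in blue. The squares of PILO+KD replicate 2 are the nearest of the blue markers to 0 in 15 of the 24 genes.

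Over all 21036 transcripts, the log2 ratio of a PILO+KD library to the CTRL mean (with 0.5 CPM added to each level) had an SD of 0.45 in replicate 1, 0.34 in replicate 2 and 0.38 in replicate 3. For comparison, each CTRL library against the mean of the other 2 gave 0.30, 0.28 and 0.38. More than 2-fold from the CTRL mean were 656 transcripts in PILO+KD replicate 1 (3.12%), 150 in replicate 2 (0.713%) and 422 in replicate 3 (2.01%), and the CTRL libraries gave 206, 120 and 304. By this measure PILO+KD replicate 2 varied from the CTRL mean no more than CTRL replicate 3 did from the other CTRL libraries, and replicate 1 varied most. After all libraries were thinned to the depth of the shallowest, the SD was 0.50, 0.41 and 0.40 in PILO+KD replicates 1, 2 and 3, with 986, 506 and 515 transcripts beyond 2-fold. The thinned CTRL libraries gave an SD of 0.38, 0.34 and 0.45, with 526, 332 and 705 transcripts beyond 2-fold. At equal depth replicate 2 was thus no longer the PILO+KD library with the smallest SD. CTRL replicate 3 exceeded PILO+KD replicates 2 and 3 in both measures and CTRL replicate 1 exceeded them in the count. Only PILO+KD replicate 1 lay above all CTRL libraries. The references are unlike, since a mean of 2 CTRL libraries carries more noise than the mean of 3. Thinning was also drawn only 1 time, so no order is read from values this close.

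Leaving out PILO+KD replicate 2 brought 170 transcripts past an adjusted p of 0.05 (0.808% of those tested, edgeR quasi-likelihood), 114 higher (0.542%) and 56 lower (0.266%) in PILO+KD. Among them were 5 of the 24 study genes: Gfap, Npc2, Gadd45a, Scn4b and Itpr1. Leaving out any one of the other libraries brought at most 3: none without CTRL replicate 1, CTRL replicate 3 or PILO+KD replicate 3, 2 without CTRL replicate 2 and 3 without PILO+KD replicate 1. At an unadjusted p under 0.01 the count was 896 without PILO+KD replicate 2 and from 163 to 198 without each of the others, against 265 with all. Of these 896, 562 were higher in PILO+KD. In them the left-out replicate 2 lay above all CTRL libraries in 188 (33%, beside 30.1% of all tested). It lay within the CTRL range in 207 and below it in 167. Among the 334 lower, it lay below all CTRL libraries in 144 (43%, beside 30.5%), within their range in 125 and above it in 65. Of the 170, 86 had an unadjusted p under 0.01 with all 6 libraries as well. The 170 held 55 of the 81 transcripts called by the exact test with all libraries (67.9% of the 81, 32.4% of the 170), 45 of the 59 called by DESeq2 and 36 of the 40 called with quality weights. These quality weights were 0.396 for PILO+KD replicate 2 and 0.496 for CTRL replicate 3, the lowest 2 of the 6. The quality-weighted fit thus already counts PILO+KD replicate 2 least. All these lists also come from the same libraries, so their overlap is in part built in.

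**Figure D4:**
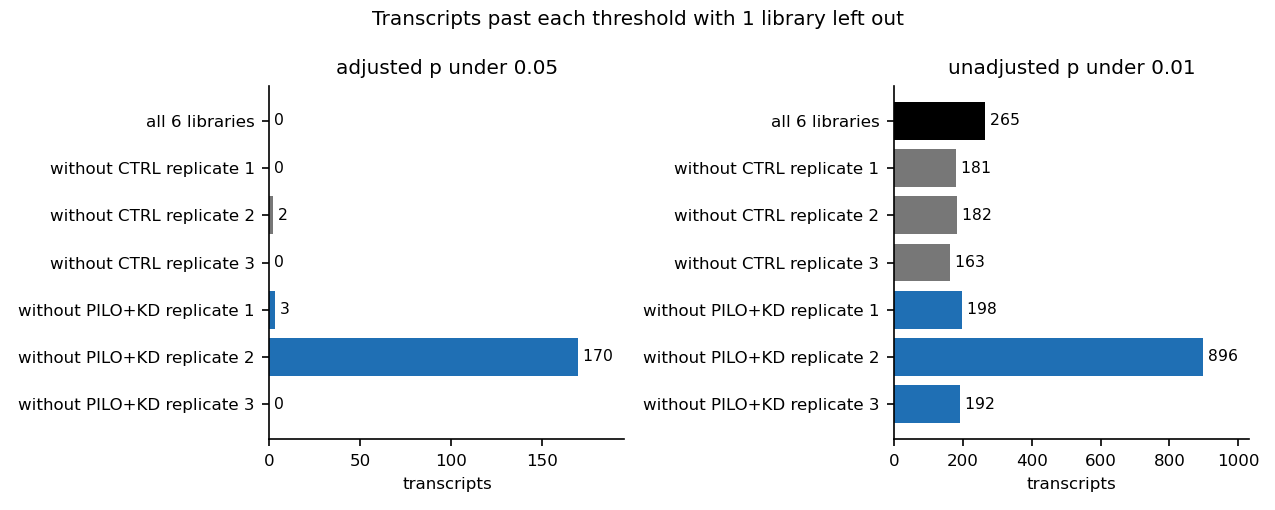
Number of transcripts (horizontal axis, from 0) with an adjusted p under 0.05 (left) and an unadjusted p under 0.01 (right), with all 6 libraries and with each library left out in turn. Leaving out PILO+KD replicate 2 gave 170 and 896, and leaving out any other single library gave at most 3 and 198.

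Among transcripts without a symbol, with a mean of at least 20 counts and no overlap, the smallest p-values of the higher ones belonged to ENSRNOT00000015958 and ENSRNOT00000011945, neither significant in the quasi-likelihood test of all 6 libraries. ENSRNOT00000015958 was at 7.29, 5.97 and 4.17 CPM in CTRL and 18.9, 16.4 and 33.0 CPM in PILO+KD (log2 fold change 1.96, SE 0.29, adjusted p = 0.179, edgeR quasi-likelihood). Its adjusted p was 0.00463 without PILO+KD replicate 2 and ranged over the alternatives from 1.07e-07 in DESeq2 to 0.903 in the fit of all 9 libraries. ENSRNOT00000011945 was at 8.38, 7.42 and 9.08 CPM in CTRL and 23.7, 15.6 and 19.7 CPM in PILO+KD (log2 fold change 1.24, SE 0.20, adjusted p = 0.179, and 0.00463 without replicate 2). With all libraries, the exact test, DESeq2 and the quality-weighted test gave adjusted p of 1.06e-06, 1.07e-07 and 0.017 for ENSRNOT00000015958 and of 0.000119, 0.000137 and 0.017 for ENSRNOT00000011945. In both, replicate 2 was the lowest of the PILO+KD libraries and still above every CTRL library.

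On the lower side, ENSRNOT00000000792 had 58, 44 and 33 counts in CTRL and 1, 4 and 2 counts in PILO+KD, the smallest adjusted p of all (0.103, edgeR quasi-likelihood, and 0.00739 without PILO+KD replicate 2). Pooled over the libraries of each group it was 17.7-fold lower per read sequenced, with an exact 95% interval of 8.34 to 44.8 that covers counting error only. ENSRNOT00000026303 was at 64.4, 66.4 and 66.2 CPM in CTRL, within 2 CPM of each other, and at 28.4, 39.0 and 22.2 CPM in PILO+KD (log2 fold change -1.13, SE 0.19, adjusted p = 0.183, and 0.00186 without replicate 2). All PILO+KD libraries were well below the CTRL libraries, with replicate 2 the highest of them. Over the alternatives the adjusted p ranged from 7.94e-07 to 0.489 for ENSRNOT00000000792 and from 0.000137 to 0.682 for ENSRNOT00000026303.

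The levels of the 3 rats given pilocarpine on a standard diet (PILO) stand beside these as values, on a scaling over all 9 libraries, with no test between the diets and with the CTRL libraries shared. Gfap averaged 663 ± 124 CPM in CTRL, 1746 ± 892 in PILO+KD and 2147 ± 654 in PILO (SD, n = 3). Npc2 averaged 84.8 ± 7.5, 136 ± 16 and 195 ± 27 CPM in the same order. Gadd45a averaged 3.78 ± 0.93, 8.08 ± 3.9 and 10.4 ± 1.5 CPM.

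Of the genes that were lower, Scn4b averaged 30.9 ± 4.5 CPM in CTRL, 19.5 ± 8.5 in PILO+KD and 6.78 ± 2.9 in PILO. Kcna2 averaged 9.90 ± 2.0, 5.58 ± 0.87 and 4.96 ± 2.2 CPM, and Itpr1 averaged 241 ± 27, 164 ± 55 and 101 ± 22 CPM. Mthfs averaged 1.41 ± 0.37, 3.05 ± 0.98 and 3.0 ± 0.21 CPM, so that its PILO+KD and PILO means were level. These genes come from lists chosen for PILO against CTRL, and no order of the groups is read from them. For the transcripts without a symbol only raw counts are given for PILO, from libraries of 17855792, 24092617 and 20604437 counts. Raw counts are not scaled to depth and cannot be set against CPM. In PILO, raw counts were 520, 3043 and 836 for ENSRNOT00000015958 and 341, 650 and 325 for ENSRNOT00000011945. They were 13, 9 and 9 for ENSRNOT00000000792, more than in any PILO+KD library, and 733, 785 and 818 for ENSRNOT00000026303.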

How the data were processed

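Poly-A RNA of the dorsal hippocampus was sequenced in 9 libraries as single reads of 36 bases. The authors aligned the reads to rat build RN4 with BWA and deposited raw counts per Ensembl transcript. Their rules for strand and for reads shared between transcripts are not given in the sources used here. Of the transcripts tested, 240 had the same counts as another in all 9 libraries. Among the study genes, 0 did. Groups were taken from the labels. Replicate numbers follow the order of deposition and pair nothing. Every library is a separate animal, processed singly.

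Counts of the 6 libraries were analysed in R 4.3.3 with edgeR 4.0.16: TMM normalization, robust quasi-likelihood fit, two-sided F-test, Benjamini-Hochberg adjustment over all 21036 transcripts, threshold 0.05. The common biological coefficient of variation was 0.196, with 4 residual degrees of freedom. The SE was obtained from each log2 fold change and its F statistic. Alternatives used the exact test of edgeR, DESeq2 1.42.0, limma 3.58.1 (voom, with and without quality weights), other scalings and filters, thinning to 9892111 counts, all 9 libraries, and each library left out. Scripts were tested on simulated counts.

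Named genes were the study genes with an unadjusted p under 0.05 or without overlap, the remainder by counts and ranges, and in each direction the 2 transcripts without a symbol that had the smallest p, at least 20 counts on average and no overlap, since none passed the adjusted threshold. Gabrd, and the values given for other study genes outside this rule, were added after their values were seen. The comparison, its members and its lists were chosen with earlier results of these data known. Of the deposited identifiers, 0 matched the RefSeq gene table (GRCr8), so no list of other genes or cell type markers could be read and the tissue could not be checked against its markers; all 24 study symbols matched, and 19 had a promoter window. One gene of the study's lists is not reported here. Intervals and low counts cover counting error only.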

Additional observations from a re-analysis of the deposited data

How the results depend on the processing

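Of 476 checks of single genes and transcripts under the alternatives, 444 kept the direction and the side of the threshold, 31 passed the threshold where the fit of all 6 libraries did not, and 1 reversed: Nrip1, with a log2 fold change from -0.58 to 0.060 when 1 library was left out, the latter without PILO+KD replicate 3. The number of transcripts with an adjusted p under 0.05, 0 in the main analysis, was 81 in the exact test of edgeR, 59 in DESeq2, 40 in limma-voom with quality weights, 15 without a filter on low counts, 1 after thinning, and from 0 to 170 with 1 library left out (170 without PILO+KD replicate 2). It stayed at 0 with all 9 libraries, in limma-voom, with library totals only, with relative log expression scaling and under the 2 other filters. At an unadjusted p under 0.01 the main count was 265, the exact test gave 408, quality weights 631, and leaving out 1 library 163 to 896. Of the 24 study genes, 12 had an unadjusted p under 0.05 (beside 4.92% of all tested), and 6 did in the fit of all 9 libraries (beside 3.53%). With 1 library left out the count ran from 6 to 15. It was 6 without CTRL replicate 3 (beside 3.34%) or PILO+KD replicate 3 (beside 4.51%) and 15 without PILO+KD replicate 2 (beside 11.3%). Transcripts without overlap numbered 3487 to 5817 with 1 library left out, the highest without PILO+KD replicate 2 and at most 4128 without any other. A group of 2 libraries separates from 3 more often by construction. After thinning to equal depth, the SD of the log2 ratio to the CTRL mean was 0.50 for PILO+KD replicate 1, 0.41 for replicate 2 and 0.40 for replicate 3, which reverses the order of the last 2 (0.34 and 0.38 unthinned), and the thinned CTRL libraries gave 0.38, 0.34 and 0.45. The cause of the other differences was not tested. No paired analysis was possible because replicate numbers were given in the order of deposition and the labels tie no animals together. The depth of PILO+KD replicate 3, 9904067 counts, limits what can be seen in transcripts of low level, where 3 counts in this library correspond to 0.303 CPM.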
